A study of Mus musculus with 6 samples.

Results

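The genes of the primary (azurophil) granule were compared between mouse leukaemia cells induced to delete Chaf1b and their vehicle-treated controls. The 10 genes were chosen by name as granule enzymes, their activator and packaging proteins: Mpo, Elane, Prtn3, Ctsg, Cfd, Prss57, Ctsc, Srgn, Ms4a3 and Nkg7. All 10 were found among the 35869 gene symbols that each library lists. The 3 KO libraries came from acute myeloid leukaemia cells transformed by retroviral MLL-AF9, carrying floxed Chaf1b and CreERT2, that received β-estradiol and were lysed 48 hours later. The 3 WT libraries came from cells with the same floxed alleles, fusion and CreERT2, given ethanol vehicle, and both groups grew in SCF, IL6 and IL3. Chaf1b encodes a subunit of CAF-1, the complex that deposits histones on newly replicated DNA. The cells are described as clones, but neither the number of clones nor whether replicates were separate cultures is given, so p-values here reflect only how far these libraries spread, possibly for technical reasons. The ligand and the deletion cannot be told apart, since every KO culture and no WT culture received β-estradiol.

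Primary granules form at the promyelocyte stage, when granulocyte progenitors transcribe the granule enzymes at very high levels and then shut them off as the cells mature. Myeloperoxidase turns hydrogen peroxide and chloride into hypochlorous acid. The neutrophil serine proteases are made as inactive precursors, trimmed by cathepsin C and stored on the proteoglycan serglycin. High transcript levels of these enzymes are a known trait of leukaemias arrested at the granulocyte-monocyte progenitor stage.

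Polyadenylated RNA was sequenced, and the values are TPM, transcript shares of each library corrected for transcript length. The labels give about 120 M reads of 100 bases per sample, but TPM keeps no read counts, so the number of reads behind a single value is unknown. The 3 values of a group are given for replicates 1, 2 and 3 in turn. Chaf1b was at 17.7, 14.4 and 14.2 TPM across the KO libraries and 48.6, 49.0 and 50.6 TPM across the WT libraries (limma adjusted p = 0.0058). The ratio of the KO mean to the WT mean was 0.31, so Chaf1b values were lower in KO but not absent. Gene-level values do not tell intact transcript from transcript that lacks the floxed part. KO replicate 1 and WT replicate 1 stand apart from the other libraries of their groups: without both, 55.8% of all tested genes were called, against 19.0% with all 6 libraries. The file header of WT replicate 1 alone bears a replacement note whose meaning is not given. A list of 10 genes was compared as leukaemic progenitor markers, though not all of them are particular to progenitors. Of these, Ptprc, Kit, Cd34, Hoxa9 and Meis1 were listed at 14.4 TPM or more in each of the 6 libraries. The lowest of the 10 was Flt3, at 1.1 to 1.8 TPM.

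Most of the granule enzymes were more abundant in KO cells, and myeloperoxidase differed by far more than the proteases. Mpo averaged 1854 ± 725 TPM in KO and 76.9 ± 54.4 TPM in WT, Elane 3162 ± 494 TPM in KO and 1359 ± 205 TPM in WT, and Nkg7 196 ± 44.2 TPM in KO and 92.8 ± 9.41 TPM in WT (mean ± SD, n = 3 each). Prtn3, Ms4a3, Prss57 and Ctsg were higher by 1.23 to 1.65 times, while Ctsc and Srgn were not called. Of the 10 genes, 8 were called higher and 0 lower at a limma adjusted p under 0.05, where 12.9% of the 13575 genes tested were called higher and 19.0% in either direction. For these 8 genes every KO value lay above every WT value, which held for 23.4% of tested genes. The median log2 fold change of the 10 genes was 0.65, against 0.01 for all genes tested. Cfd is counted in these figures, although it passed the filter through the KO libraries alone and had to come out higher. Without Cfd, 7 of the other 9 genes were called and their median log2 fold change was 0.58. In RNA from a whole culture, more cells that carry a transcript and more transcript per cell cannot be told apart.

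**Figure D1:**
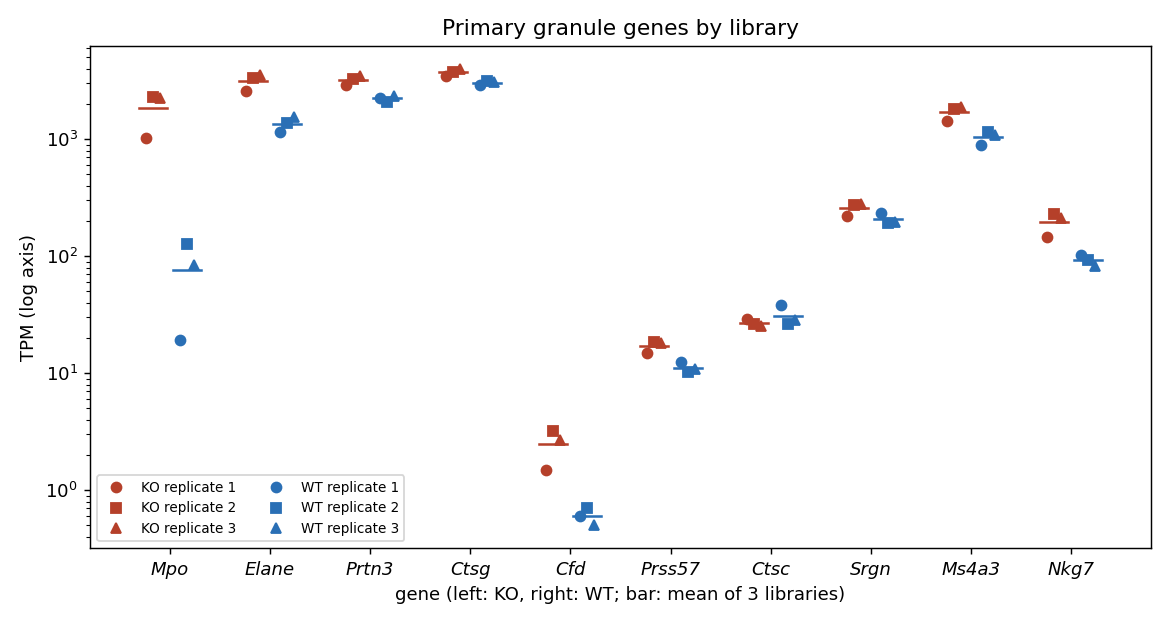
TPM of the 10 granule genes in each library on a log axis, with KO (red) left of WT (blue), 1 marker shape per replicate number and a bar at the mean of 3 libraries. Mpo shows the widest gap, from 1018 TPM upward in KO libraries against at most 128 TPM in WT libraries, while the values of Ctsc and Srgn overlap.

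Mpo, on chromosome 11 (GRCm38, 87793784 to 87804412, plus strand, 14 exons), was listed at 1018, 2311 and 2233 TPM across the KO libraries and 19.4, 128 and 83.8 TPM across the WT libraries. The lowest KO library stood 7.97 times above the highest WT library, so the groups were far apart although each was spread, with a 2.27-fold range in KO and a 6.58-fold range in WT. On the log2 scale KO exceeded WT by 4.84 (SE 0.71, limma adjusted p = 0.0150), the eighth largest of all genes tested, and the ratio of the mean TPM was 24.1. By exact permutation (two-sided) p was 0.1, and groups of 3 cannot give less. Ordered by TPM within each library, Mpo was the 127th, 39th and 51st most abundant of all symbols in KO replicates 1, 2 and 3, and the 6080th, 1662nd and 2410th in WT replicates 1, 2 and 3. Among the 2054 genes averaging 100 TPM or more, 127 were called higher and 3 had a larger log2 fold change than Mpo. RefSeq places the gene model Gm34064 over Mpo; it averaged 11.5 TPM in KO and 2.07 TPM in WT and was also called higher (log2 fold change 1.96, limma adjusted p = 0.0210), and since the strand setting of the read counting is unknown, its value is uncertain.

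Elane, which encodes neutrophil elastase (chromosome 10, 79886312 to 79888216, plus strand, 5 exons), was listed at 2601, 3352 and 3533 TPM across the KO libraries and 1152, 1363 and 1562 TPM across the WT libraries. The groups did not overlap, and the ratio of the means was 2.33 (log2 fold change 1.22, SE 0.15, limma adjusted p = 0.0125). Prtn3, which encodes proteinase 3 (79879667 to 79883174 on the same chromosome), stood at 2893, 3273 and 3503 TPM across the KO libraries and 2269, 2093 and 2345 TPM across the WT libraries. Its ratio of 1.44 was smaller than that of Elane, again without overlap (log2 fold change 0.52, SE 0.08, limma adjusted p = 0.0153). Ctsg, the gene of cathepsin G, a chymotrypsin-like protease (chromosome 14, 56099885 to 56102574, minus strand), was at 3440, 3783 and 3999 TPM across the KO libraries and 2892, 3114 and 3105 TPM across the WT libraries. It was the most abundant of the 10 transcripts in every library and had the smallest ratio of the genes called, 1.23 (log2 fold change 0.30, SE 0.06, limma adjusted p = 0.0297). Exact permutation gave p = 0.1 for each of these proteases.

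The weakly expressed proteases of the group differed in the same direction. Prss57, which encodes neutrophil serine protease 4 (chromosome 10, 79781474 to 79794684, minus strand), was at 14.8, 18.6 and 18.2 TPM across the KO libraries and 12.4, 10.2 and 10.8 TPM across the WT libraries. The groups were separated by a narrow gap (ratio of the means 1.54, log2 fold change 0.58, SE 0.11, limma adjusted p = 0.0231). Prss57 overlaps Fstl3 and Palm in the RefSeq annotation, neither of which was called (log2 fold changes 0.24 and -0.002). Cfd, the gene of complement factor D, was listed at 1.5, 3.2 and 2.7 TPM across the KO libraries and 0.6, 0.7 and 0.5 TPM across the WT libraries. It is barely expressed in either group, and it passed the filter of 1 TPM in 3 libraries through the KO libraries alone, so its fold change (log2 1.08, SE 0.20, limma adjusted p = 0.0217) had to be high. Leaving Cfd out, 7 of the other 9 genes were called and their median log2 fold change was 0.58.

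The genes that process and pack the enzymes were not called. Ctsc, whose product cathepsin C activates the granule serine proteases (chromosome 7, 88278024 to 88315861), was at 28.8, 26.4 and 25.4 TPM across the KO libraries and 38.1, 26.2 and 28.3 TPM across the WT libraries. These values overlap, and the log2 fold change of -0.18 had a 95% confidence interval of -0.52 to 0.16 (limma adjusted p = 0.395). A moderate fall or a small rise thus cannot be told from no change. Leaving out WT replicate 1, the highest library for Ctsc, gave a log2 fold change of -0.02 (SE 0.07, limma adjusted p = 0.832). Srgn, the gene of the serglycin core protein (chromosome 10, 62493833 to 62527445), was at 221, 274 and 280 TPM across the KO libraries and 234, 193 and 197 TPM across the WT libraries. Here WT replicate 1 lay above KO replicate 1, and the log2 fold change was 0.31 (95% confidence interval 0.02 to 0.59 before adjustment, limma adjusted p = 0.109). Leaving out WT replicate 1 gave a log2 fold change of 0.40 and a call (limma adjusted p = 0.0457), as did leaving out KO replicate 1 (0.42, limma adjusted p = 0.0319); over all alternatives run the adjusted p of Srgn lay between 0.0014 and 0.312.

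Both membrane proteins of the group were called higher. Ms4a3, which encodes a membrane-spanning protein used as a marker of granulocyte-monocyte progenitors (chromosome 19, 11629499 to 11640851), was at 1427, 1824 and 1870 TPM across the KO libraries and 890, 1148 and 1076 TPM across the WT libraries. The groups did not overlap (ratio of the means 1.65, log2 fold change 0.72, SE 0.14, limma adjusted p = 0.0228). Nkg7, known as a granule membrane protein of cytotoxic lymphocytes (chromosome 7, 43437138 to 43438246), was at 146, 231 and 211 TPM across the KO libraries and 102, 93.3 and 83.1 TPM across the WT libraries. Every KO value was at least 1.44 times the highest WT value (log2 fold change 1.05, SE 0.18, limma adjusted p = 0.0179). Of 12 T and NK cell markers, 11 stayed below 1 TPM in every library and 6 were listed at 0 throughout; the exception, Prf1, averaged 5.37 TPM in KO and 0.70 TPM in WT and was called higher.

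**Figure D2:**
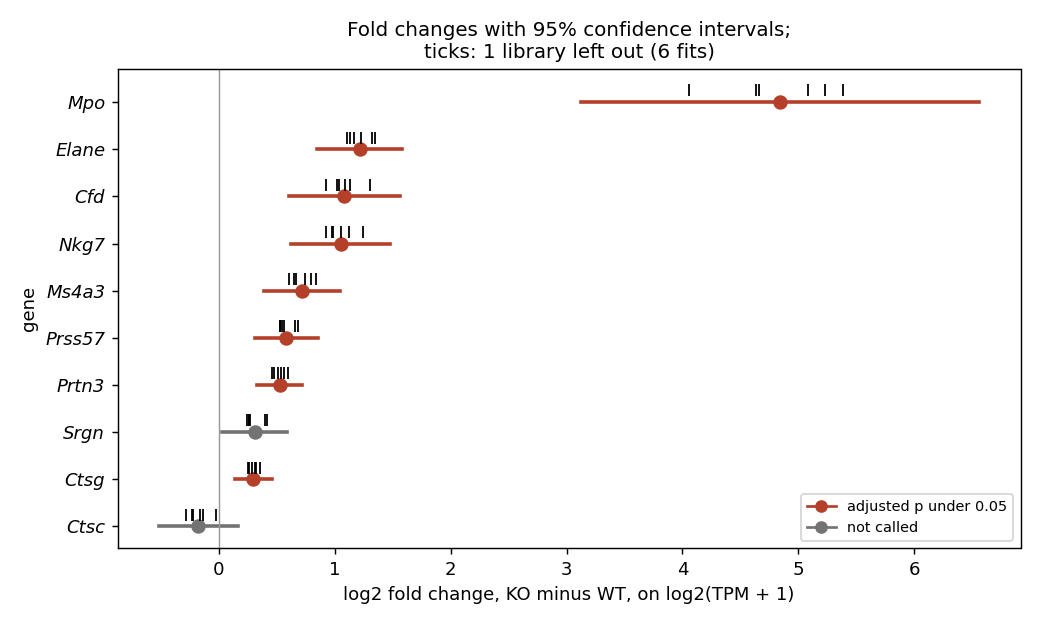
Log2 fold change of each granule gene, KO minus WT on log2(TPM + 1), with its 95% confidence interval from limma; black ticks are the 6 fits with 1 library left out, and red marks an adjusted p under 0.05. Mpo lies at 4.84 and the other genes between -0.18 and 1.22, and no tick falls on the other side of 0 from its point.

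The direction of each fold change was the same in every fit with 1 library left out, but the calls were not. Without KO replicate 2, KO replicate 3, WT replicate 2 or WT replicate 3, limma called 0 of the 10 genes, while 0.803%, 0%, 0.184% and 0.110% of all genes were called. In each of these fits 8 of the 10 genes, Cfd among them, had an unadjusted limma p under 0.05. So had 3220, 3381, 3831 and 3886 of the 13575 genes tested, in the same order of fits. Without KO replicate 1 or without WT replicate 1, 9 of the 10 genes, again with Cfd, were called, where 27.1% and 35.7% of all genes were. KO replicate 1 had the lowest KO value of 9 of the 10 genes, Ctsc being the exception. WT replicate 1 had the lowest WT value of Mpo, Elane, Ctsg and Ms4a3 and the highest of Prss57, Ctsc, Srgn and Nkg7. Markers of mature neutrophils also moved between these libraries: the summed TPM of 10 such genes was 354, 723 and 635 in KO replicates 1, 2 and 3, against 418, 69.6 and 90.3 in WT replicates 1, 2 and 3. With WT replicate 1 left out, the log2 fold change was 4.06 for Mpo and 1.10 for Elane (limma adjusted p = 0.0190 for both).

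Summed over the 10 genes, granule transcripts made up 1.18%, 1.51% and 1.57% of all transcripts in KO replicates 1, 2 and 3, against 0.761%, 0.817% and 0.849% in WT replicates 1, 2 and 3. Mpo held 12.7 ± 3.59% of that sum in KO and 0.935 ± 0.655% in WT (SD, n = 3 each). Ctsg held 29.2%, 25.1% and 25.5% of it in KO replicates 1, 2 and 3, against 38.0%, 38.1% and 36.6% in WT replicates 1, 2 and 3, so the makeup of the granule transcript pool differed as well as its size. Without Mpo the sum was 12333 ± 1391 TPM in KO and 8013 ± 410 TPM in WT (SD, n = 3 each).

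Ratios between 2 transcripts of the same library do not depend on how the library was scaled. There were 0.391, 0.690 and 0.632 Mpo transcripts for each Elane transcript in KO replicates 1, 2 and 3, against 0.0168, 0.0936 and 0.0536 in WT replicates 1, 2 and 3. The log2 ratio of Mpo to Elane was thus higher by 3.66 in KO, a 12.6-fold difference; leaving out WT replicate 1 gave 2.97, and leaving out WT replicate 2 gave 4.21. Elane and Prtn3 were almost equal in KO, with ratios of 0.899, 1.02 and 1.01 in KO replicates 1, 2 and 3, against 0.508, 0.651 and 0.666 in WT replicates 1, 2 and 3. The log2 ratio of Mpo to Prtn3 was higher by 4.35 in KO (3.53 without WT replicate 1 and 4.95 without WT replicate 2), that of Elane to Prtn3 by 0.69 and that of Elane to Ctsg by 0.92, while that of Ctsc to Elane changed by -1.40 and that of Srgn to Elane by -0.91. In all 6 ratios compared the KO libraries were apart from the WT libraries. These ratios are not independent, since most hold Elane, whose own values already set the groups apart. Ctsc and Srgn overlapped by themselves and were apart only as ratios to Elane. Exact permutation (two-sided) gave p = 0.1 for each ratio, also after Benjamini-Hochberg adjustment over the 6, and groups of 3 cannot give less.

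**Figure D3:**
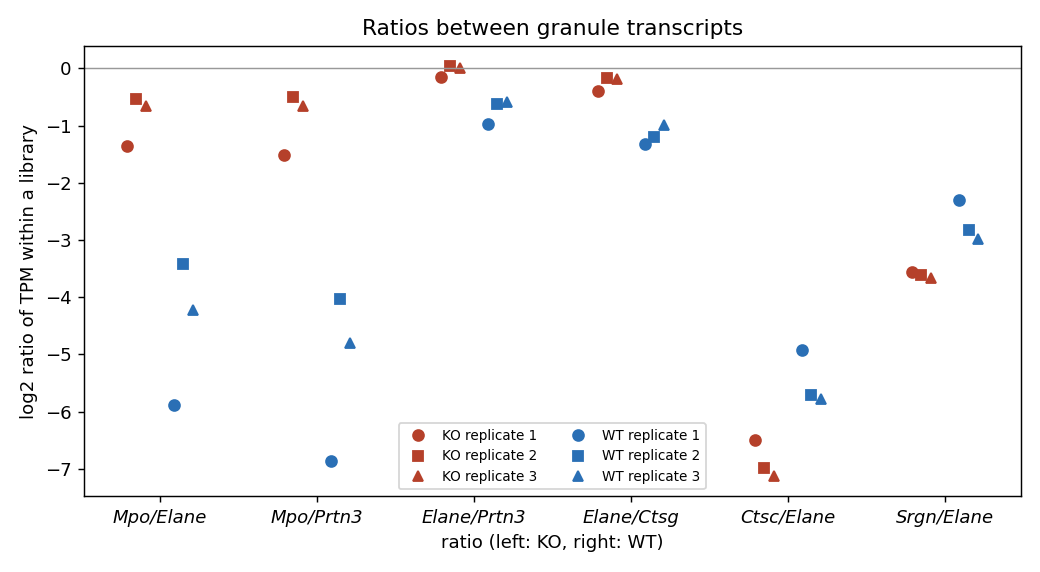
Log2 ratio of the TPM of 2 granule genes within each library, with KO (red) left of WT (blue) and 1 marker shape per replicate number. The ratio of Mpo to Elane lies between -1.35 and -0.54 in KO libraries and between -5.89 and -3.42 in WT libraries, and the groups are apart in all 6 ratios.

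Prtn3, Elane and Cfd lie side by side within 12.989 kb of chromosome 10, and Prss57 lies 84.982 kb from Prtn3, so their neighbours were compared. Of 25 other tested genes within 200 kb of any of these 4 genes, 0 were called higher by limma and 5 lower, with a median log2 fold change of -0.05; of all genes tested, 12.9% were called higher and 6.11% lower. The genes called lower were Med16, which encodes a Mediator subunit and lies 2.051 kb beyond Cfd (13.9 TPM in KO and 17.9 TPM in WT), Polrmt, Polr2e, E130317F20Rik and the microRNA gene Mir6910. The value of Mir6910 is uncertain, since a microRNA gene is shorter than a read. Ptbp1 and Plppr3, upstream of Prtn3, were not called: Ptbp1 averaged 166 TPM in KO and 188 TPM in WT, Plppr3 99.8 TPM in KO and 101 TPM in WT. Plppr3 overlaps Prtn3 on the opposite strand in GENCODE M21.

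**Figure D4:**
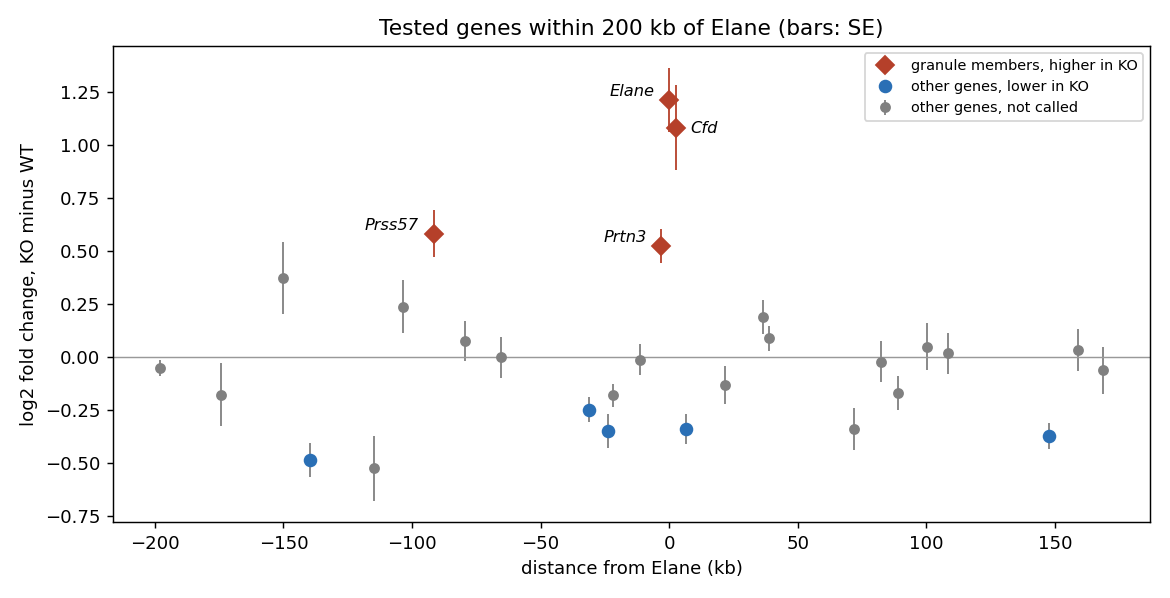
Log2 fold change, KO minus WT, of tested genes within 200 kb of Elane against their distance from it in kb, with bars of 1 SE; red diamonds are the granule genes, blue points genes called lower and grey points genes not called. The 4 granule genes lie between 0.52 and 1.22, and none of the other genes was called higher.

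Around the remaining granule genes the picture was mixed. Mcpt8, which encodes a mast cell protease family member of basophils and lies 14.386 kb from Ctsg, averaged 81.3 ± 27.7 TPM in KO and 18.4 ± 2.31 TPM in WT (SD, n = 3 each; log2 fold change 2.03, limma adjusted p = 0.0140). The microRNA gene Mir6949 lies within it and was also called (log2 fold change 2.03), but such a gene is shorter than a read and its value is uncertain. Of 7 tested genes near Ms4a3, Ms4a6d, Ms4a2, Oosp2 and Oosp1 were called higher. So were Siglecf, Iglon5 and Gm38999 of 12 tested near Nkg7, and Rab38, the 1 gene tested near Ctsc. Of these, Ms4a6d, Iglon5 and Gm38999 passed the filter through the KO libraries alone. Ddx21, an RNA helicase gene, was called lower among 8 tested near Srgn. Around all 10 granule genes, 11 of 65 other tested genes were called higher and 6 lower. Among all genes tested, 12.9% were called higher and 6.11% lower. Apart from Gm34064, none of the 8 tested neighbours of Mpo was called. Its peroxidase relatives Epx and Lpo were too weakly expressed to be tested. Across the KO libraries Epx was at 0.1, 0.3 and 0.2 TPM and Lpo at 0.2, 0.7 and 0.5 TPM. Both were listed at 0 in every WT library, and Pxdn was listed at 0 throughout.

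The promoters of the 4 most abundant enzyme genes are shown because these genes were called higher together. Windows from 250 bases before to 50 bases after the start, from RefSeq on GRCm38.p6, matched 9 of the 10 genes. Capitals mark matches, on either strand, to GAGGAA (a core bound by PU.1 and other ETS factors), AACNGNC (MYB), TGTGGT (RUNX) and TTNNGNAA (C/EBP).
Mpo (chr11:87793534-87793833, plus strand): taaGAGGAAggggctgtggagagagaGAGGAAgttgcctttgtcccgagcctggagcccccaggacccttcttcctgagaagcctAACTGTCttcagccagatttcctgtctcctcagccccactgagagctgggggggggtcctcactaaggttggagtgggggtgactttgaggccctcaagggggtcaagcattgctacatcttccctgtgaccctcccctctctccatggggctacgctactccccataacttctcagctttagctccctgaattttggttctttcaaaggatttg
Elane (chr10:79886062-79886361, plus strand): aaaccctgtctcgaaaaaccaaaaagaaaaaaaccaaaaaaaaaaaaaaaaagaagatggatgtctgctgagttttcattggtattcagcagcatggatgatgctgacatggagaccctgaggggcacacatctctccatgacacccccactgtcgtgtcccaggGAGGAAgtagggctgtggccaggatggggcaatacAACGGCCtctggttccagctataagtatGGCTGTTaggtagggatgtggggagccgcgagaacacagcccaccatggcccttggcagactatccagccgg
Prtn3 (chr10:79879417-79879716, plus strand): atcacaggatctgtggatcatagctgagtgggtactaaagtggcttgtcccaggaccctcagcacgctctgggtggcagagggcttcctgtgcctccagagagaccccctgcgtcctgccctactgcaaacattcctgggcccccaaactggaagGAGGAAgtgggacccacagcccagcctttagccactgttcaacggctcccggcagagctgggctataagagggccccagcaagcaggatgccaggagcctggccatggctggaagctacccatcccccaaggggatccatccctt
Ctsg (chr14:56102525-56102824, minus strand): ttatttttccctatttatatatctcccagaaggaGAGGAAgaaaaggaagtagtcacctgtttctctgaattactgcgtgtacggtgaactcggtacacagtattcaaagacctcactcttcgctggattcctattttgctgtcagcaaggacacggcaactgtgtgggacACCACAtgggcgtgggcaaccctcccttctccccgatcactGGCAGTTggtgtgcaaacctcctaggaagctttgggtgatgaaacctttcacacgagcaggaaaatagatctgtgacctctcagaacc
In these 4 windows no marked matches overlap. GAGGAA was found in the windows of 6 genes (Mpo, Elane, Prtn3, Ctsg, Ms4a3 and Ctsc), against 28.3% of the 32851 windows of all genes. AACNGNC was found for Mpo, Elane, Ctsg, Cfd and Nkg7, against 32.8% of all windows. TGTGGT was found for Ctsg, Nkg7 and Srgn (16.8% of all windows), and TTNNGNAA for Ms4a3 and Srgn (40.7%). Ctsc, which was not called, also holds GAGGAA, and Prss57 was not among the windows used here.

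Of 13 regulators of granule genes listed, 12 were tested, 7 were called higher and 1 lower, where 12.9% of all tested genes were called higher and 6.11% lower; the median log2 fold change was 0.30. Cebpe, the C/EBP factor of late granulocyte differentiation, was at 489, 693 and 650 TPM across the KO libraries and 313, 233 and 248 TPM across the WT libraries (log2 fold change 1.20, limma adjusted p = 0.0142). Ets1, Kmt2a and Runx1 were higher by 0.64, 1.13 and 0.79 on the log2 scale. Kmt2a is counted among the 7 genes called higher, but gene-level values do not tell its reads from reads of the MLL-AF9 transcript. Irf8, a factor of monocyte and dendritic fate, fell by 1.11. Spi1, the gene of PU.1, averaged 133 ± 6.31 TPM in KO and 133 ± 16.2 TPM in WT, and Myb 322 ± 8.70 TPM in KO and 292 ± 11.4 TPM in the WT group (limma adjusted p = 0.983 and 0.0755; SD, n = 3 each).

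Other contents of the azurophil granule mostly were not called. Of 13 tested, 2 were higher and 0 lower, a share near the 12.9% of all tested genes called higher (6.11% were lower), and the median log2 fold change was 0.24. The genes called were the lysozyme genes Lyz2 with 940 ± 252 TPM in KO and 383 ± 22.1 TPM in the WT group (limma adjusted p = 0.0164), and Lyz1 with 8.27 ± 3.17 TPM in KO and 2.93 ± 0.473 TPM in WT (0.0330; SD, n = 3 each). Lyz1 and Lyz2 are close copies, and how reads were divided between them is not given. Of 19 genes of granule sorting and protein folding tested, 2 were higher and 1 lower, also near the shares of all genes (12.9% and 6.11%), with a median of 0.03. Of these, Lyst, which governs lysosome size, was higher by 0.50, the chaperone gene Hspa5 was higher by 0.15 and Hax1, whose loss causes neutropenia in humans, fell by 0.49 on the log2 scale. Of 10 tested protease inhibitors, 2 were higher and 0 lower, against 12.9% and 6.11% of all genes: Serpinb6a (5.53 TPM in KO, 3.47 TPM in WT) and Serpina1e, at 2.9, 9.2 and 6.8 TPM in KO replicates 1, 2 and 3 and listed at 0 in all 3 WT libraries. Serpina1e passed the filter through the KO libraries alone, so it had to come out higher. Serpinb1a, an inhibitor of elastase, proteinase 3 and cathepsin G, averaged 499 ± 43.8 TPM in KO and 448 ± 4.68 TPM in the WT group (limma adjusted p = 0.154).

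**Figure D5:**
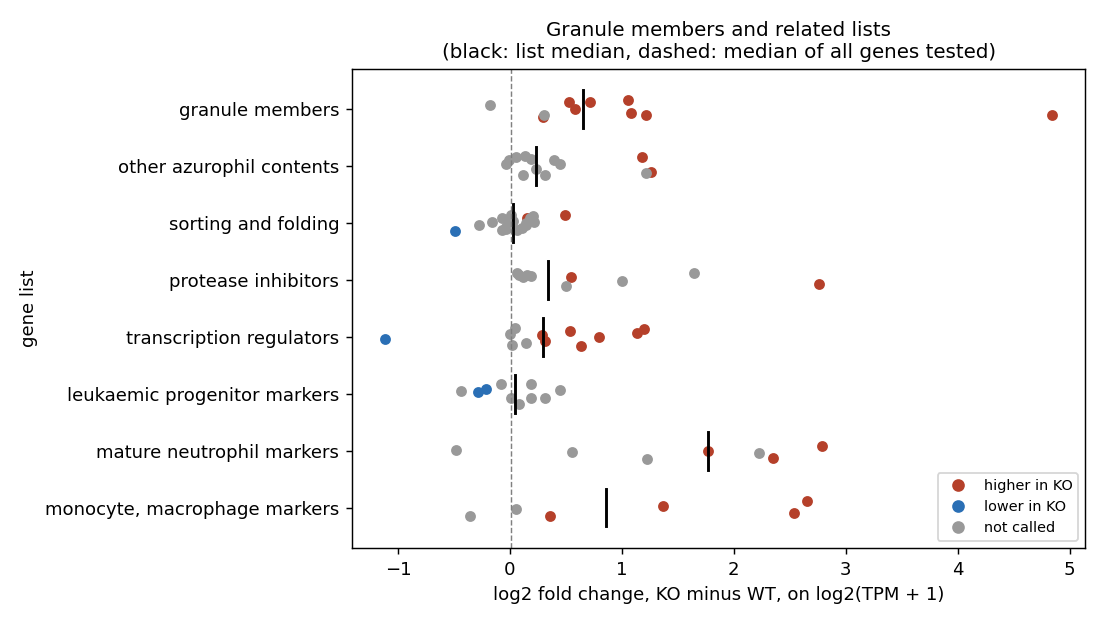
Log2 fold change, KO minus WT, of the tested genes of each list, red where called higher, blue where called lower and grey where not called, with the list median in black and the median of all tested genes dashed. Granule members have a median of 0.65 (0.58 without Cfd), other azurophil contents 0.24, and sorting and folding genes 0.03.

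Relatives of the granule proteases and markers of other cells were compared as well; among all genes tested, 12.9% were called higher and 6.11% lower. Of 21 other serine protease genes of granulated cells and related tissues, 19 stayed below 1 TPM in every library; the exceptions were Mcpt8 and Prss16, both called higher. Of 17 Ms4a genes other than Ms4a3, 4 were tested and 2 called higher (Ms4a6d and Ms4a2), of which Ms4a6d, below 1 TPM in each WT library, passed the filter through the KO libraries alone and had to come out higher. Of the 10 genes compared as progenitor markers, 0 were higher and 2, Hoxa9 and Hoxa10, were lower (limma adjusted p = 0.0286 and 0.0387). Hoxa9 averaged 174 ± 11.2 TPM in KO and 213 ± 8.47 TPM in WT (SD, n = 3 each). Hoxa10 averaged 166 ± 8.80 TPM in KO and 193 ± 4.67 TPM in the WT group (SD, n = 3 each). Of 7 tested mature neutrophil markers, Cd177, Camp and Lcn2 were higher and none lower. Ly6g, Cxcr2, Ngp and Mmp9 were not called (log2 fold changes 1.22, 2.22, 0.55 and -0.48). For each of them WT replicate 1 stood far above the other WT libraries. Ly6g was at 62.0, 1.9 and 3.0 TPM in WT replicates 1, 2 and 3, and its mean was 20.7 TPM in KO and 22.3 TPM in WT. Of 6 tested monocyte and macrophage markers, Fcgr1, Mpeg1, Ly6c2 and Cd14 were higher and none lower. Ccr2 and Adgre1 were not called (log2 fold changes -0.36 and 0.06). Mast cell and basophil markers summed to 109, 197 and 180 TPM across the KO libraries and 66.2, 84.3 and 65.9 TPM across the WT libraries. Most of each sum came from Mcpt8 and Hdc. Of 4 tested, 2 were called higher, Mcpt8 and Ms4a2. Hdc averaged 76.5 TPM in KO and 51.4 TPM in WT and Cpa3 1.0 TPM in both, and neither was called. Mcpt4, Tpsb2, Fcer1a and Prss34 were listed at 0 throughout. Eosinophil markers summed to 17.5 to 25.4 TPM in KO and 9.9 to 12.4 TPM in WT. Siglecf held most of each sum and was the 1 of 2 tested called higher. Of 2 tested B cell markers both, Cd79a and Cd79b, were called higher. However, Cd79a, at 1.0 to 1.3 TPM in KO and below 1 TPM in WT, was tested through the KO libraries alone. It therefore had to come out higher. The part of other cell types in the granule gene values was not tested.

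Profiles most like those of Mpo and Elane were sought among 619 named genes averaging 5 TPM or more with at least a 2-fold range, by Pearson's r of log2(TPM + 1) over the 6 libraries, as a description in which all genes share the same KO and WT libraries. Closest to Mpo were S1pr3, Emilin1, Kmt2a, Kcnj2 and Tmem150b, with r of 0.993 to 0.995. Among those closest to Elane were Mllt3, Pvalb, Soga1 and Pmp22, with r of 0.993 to 0.996. Each of these genes was called higher, which follows largely from choosing profiles so close to those of called genes. Elane itself took place 34 among the profiles like Mpo (r 0.977), and Ms4a3 place 19 (r 0.985). Kmt2a and Mllt3 are the mouse counterparts of the genes joined in MLL-AF9, and gene-level values do not tell reads of the mouse genes from reads of the fusion transcript. Kmt2a was at 52.7, 70.1 and 67.5 TPM across the KO libraries and 22.0, 31.4 and 32.4 TPM across the WT libraries. Mllt3 was at 16.7, 23.3 and 22.7 TPM across the KO libraries and 7.3, 9.6 and 10.2 TPM across the WT libraries.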

How the data were processed

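RNA was measured in 3 KO and 3 WT libraries, grouped by the sample titles. Each deposited file lists the authors' TPM by gene symbol to 1 decimal, summing to 999924 to 999935 per library; the authors' step from counts to TPM, the gene annotation and the strand setting are not given here. The submitters' processing notes name mm10, STAR 2.6.1e as a tool beside featureCounts 1.6.2, and for trimming cutadapt 1.9.1 with Trim Galore 0.4.2. Per the labels' protocols the libraries were stranded poly(A) libraries.

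The 13575 genes that reached 1 TPM in 3 or more libraries (22294 did not) were compared on the log2(TPM + 1) scale by limma (version 3.58.1, R 4.3.3) under a mean-variance trend and Benjamini-Hochberg adjustment over all of them. Fold changes on this scale understate those of weakly expressed genes. Exact permutation tests used scipy 1.17.1. The fit was tested on simulated data whose noise was independent between genes, so deviations of whole libraries were not covered. The granule genes, lists and settings were chosen with earlier results of these data known. Named beside the granule genes are, per list, up to 4 called genes with the smallest adjusted p in the majority direction and up to 2 in the other, the called neighbours within 200 kb and the 5 closest profiles (some items these rules name are not reported here); Ptbp1, Plppr3, Fstl3, Palm, Spi1, Myb, Serpinb1a, Epx, Lpo, Pxdn and single markers were named after their values were seen. Positions came from RefSeq GRCm38.p6, the assembly mm10 names (32401 of 35869 symbols matched), and exons and strand from GENCODE M21. Alternatives were pseudocounts of 0.1, 0.5 and 5, no filter or one on a mean of 5 TPM, other scalings and models, the replicate number as a block, and leaving libraries out.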

Additional observations from a re-analysis of the deposited data

How the results depend on the processing

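All 10 granule genes kept the sign of their fold change under every alternative that could fit them; Cfd drops out at a mean of at least 5 TPM. Leaving out 1 library gave 0 to 9 granule genes called and 0 to 4850 of all genes called, the lowest without KO replicate 3, where 3381 genes had an unadjusted p under 0.05, and the highest without WT replicate 1. Without KO replicate 1 and WT replicate 1 together, 9 granule genes and 7569 genes (55.8%) were called. With a mean of at least 5 TPM, 7 of 9 granule genes and 1578 genes (15.7%) were called. Other pseudocounts, no filter, other scalings and other eBayes settings each called 8 granule genes, Cfd among them. In these fits 14.8% to 22.6% of all genes were called. Quantile normalization gave 1346 genes higher and 1722 lower, against 1745 and 830 as deposited, and lowered the log2 fold change of Ctsg to 0.15 (limma adjusted p = 0.0334). The log2 fold change of Cfd ran between 0.41 and 1.82 with the pseudocount. With the replicate number as a block, 3 granule genes (Mpo, Elane and Ms4a3) and 333 genes (2.45%) were called. The labels do not say that numbers pair the libraries, and the deviations of same-numbered libraries from their group means had correlations of -0.20, -0.15 and -0.16 across genes; no library correlated best with its own number. Over all alternatives the limma adjusted p lay between 0.0013 and 0.0911 for Mpo, 0.0018 and 0.0897 for Elane, and 0.0044 and 0.0907 for Prtn3. None of the 6 ratios changed sign with a pseudocount of 1 or with any library left out, but leaving out 1 library moved the log2 difference of Mpo to Elane between 2.97 and 4.21 and that of Mpo to Prtn3 between 3.53 and 4.95. TPM holds no read counts, so counting error could not be set beside the spread between libraries.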
